A study of Homo sapiens with 9 samples.

Results

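This report describes the genes of the proteasome in cells labelled A549, a human lung adenocarcinoma cell line, after CRISPR targeting of OGT or TR11B. Members were all rows of the count table whose symbol was PSM followed by a letter from A to G and a number, with or without IP at the end. This gave 47 genes of the 19257 in the table, and all 47 were expressed highly enough to be tested, among 12574 tested genes. RNA was sequenced from 9 libraries, 3 per group: OGT_KO cells, given a Lenti-CRISPR-V2 plasmid against OGT; TR11B_KO cells, given such a plasmid against TR11B (taken as TNFRSF11B, osteoprotegerin); and NC cells, given the empty plasmid and labelled WT for genotype. All cells thus carried the same vector backbone. The labels give no guide sequence and do not say whether a line was 1 clone, so guide or clone effects cannot be told apart from those of a knockout. The titles name biological replicates without saying whether cultures were separate. The spread behind each p-value may therefore be partly technical.

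The proteasome degrades proteins that carry ubiquitin chains. Its core particle is a barrel whose outer rings are built from alpha subunits (PSMA genes) and whose inner rings are built from beta subunits (PSMB genes), of which PSMB5, PSMB6 and PSMB7 cut the substrate. A regulatory particle of ATPases (PSMC genes) and further subunits (PSMD genes) binds, unfolds and feeds in the substrate, and the joined particle is called the 26S proteasome. Cells exposed to interferon replace the cutting subunits by PSMB8, PSMB9 and PSMB10, which makes the immunoproteasome that supplies peptides for HLA class I molecules. The transcription factor NFE2L1 (NRF1) drives proteasome genes when proteasome activity is short. OGT, which attaches O-GlcNAc to proteins, has been reported to modify both NFE2L1 and the ATPase PSMC1.

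The libraries held 38327508 to 42245970 counts. The targeted genes did not mark the groups: OGT had 21.1, 28.3 and 22.9 CPM (counts per 1000000 of the TMM-scaled library) in OGT_KO and 29.6, 26.9 and 24.7 CPM in NC, and the groups overlapped (−0.17 ± 0.21 on the log2 scale, adjusted p = 0.607). OGT was lower in TR11B_KO, with 17.0, 11.5 and 12.4 CPM (−0.99 ± 0.21 against NC, adjusted p = 0.00393). TNFRSF11B had 3, 1 and 0 counts in TR11B_KO and 13, 15 and 3 counts in NC, too few to be tested, and OGT_KO held 1, 0 and 0. Editing may leave mRNA levels as they were, and every direction below rests on the labels. The lowest OGT level was in TR11B_KO, and whether the knockout labels were exchanged was not tested. TR11B_KO replicate 2 stood apart, with a TMM factor of 0.784 where the other libraries had 0.951 to 1.159. Of the markers of epithelium, KRT8 averaged 5778 CPM in OGT_KO and 9924 CPM in TR11B_KO, against 11462 CPM in NC, and KRT18 averaged 3241 CPM in OGT_KO and 6756 CPM in TR11B_KO, against 6162 CPM in NC. Whether the lower keratin level in OGT_KO has a part in the results below was not tested. KRT19 reached 0.484 CPM at most, EPCAM 0.0512 CPM, and CDH1 had no count. NAPSA, a marker of lung, reached 0.29 CPM. KRT19, EPCAM, CDH1 and NAPSA thus did not mark the cells as lung epithelium, and their identity as A549 rests on the labels. PECAM1, a marker of endothelium, had no count either, COL1A1, a marker of fibroblasts, reached 0.871 CPM, and CD68, listed for leukocytes, lay between 2.87 and 6.33 CPM.

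Start regions of a few members are shown first, because the members that rose in TR11B_KO include PSMB8, PSMB9, PSMB10 and PSME2, which are known to be inducible by interferon. RefSeq (GRCh38.p14) gave 51 start windows, each of 250 bases before and 50 after a start, for 41 of the 47 genes. GAAANNGAAA, the core of the element bound by interferon regulatory factors, was searched on both strands, a motif chosen after the values were seen. It occurred in 7 of the 51 member windows (13.7%) and in 3.57% of all 35116 windows. The capitals mark its match, on the sense strand in PSMB10 and PSME2 and on the antisense strand in PSMB8 and PSME1. The windows run from 70 bases before to 30 bases after the start at chr16:67936821-67936920 (minus strand), chr6:32844018-32844117 (minus), chr14:24146581-24146680 (minus) and chr14:24136124-24136223 (plus).
PSMB10: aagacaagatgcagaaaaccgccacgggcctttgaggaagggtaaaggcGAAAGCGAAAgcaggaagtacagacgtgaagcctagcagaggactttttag
PSMB8: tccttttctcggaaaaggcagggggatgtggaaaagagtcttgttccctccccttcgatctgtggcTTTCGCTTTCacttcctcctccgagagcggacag
PSME2: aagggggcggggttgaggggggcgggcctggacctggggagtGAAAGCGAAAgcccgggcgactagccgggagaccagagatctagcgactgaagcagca
PSME1: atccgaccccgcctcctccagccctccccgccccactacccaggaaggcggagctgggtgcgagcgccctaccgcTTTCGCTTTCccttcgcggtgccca
The remaining matches were in PSMA4, PSMB4 and PSMG4, and PSMB9 had none. TGACNNNGC, the core of the antioxidant response element that NFE2L1 and NFE2L2 bind, occurred in 15 of the 51 windows (29.4%) and in 13.3% of all windows. A match upstream of the start, again in capitals with 10 bases on either side, on the antisense strand in PSMB9 and PSMC5 and on the sense strand in the others, is given for members that passed the test against NC in a knockout, at chr15:78540650-78540678, chr6:32854034-32854062, chr17:63827654-63827682, chr17:39980760-39980788, chr12:121888678-121888706 (all plus strand) and chr14:24146767-24146795 (minus).
PSMA4: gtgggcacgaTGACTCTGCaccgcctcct
PSMB9: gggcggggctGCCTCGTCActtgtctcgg
PSMC5: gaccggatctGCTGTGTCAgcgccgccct
PSMD3: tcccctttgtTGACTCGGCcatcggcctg
PSMD9: cggcttccggTGACCCAGCtccgccctaa
PSME2: ccctggactgTGACCCAGCcagcaccgcc
PSMD9 holds another upstream match, on the antisense strand, which is not shown. The starts used here for PSMA4 and PSMC5, and above for PSMB8, lie inside the gene rather than at its outermost start. Upstream refers to the start used. The calls of the 6 genes come from different comparisons: PSMA4, PSMB9, PSMC5 and PSME2 rose in TR11B_KO, and PSMD3 and PSMD9 fell in OGT_KO. CCAAT occurred in 41.2% of the member windows and in 34.6% of all. A match describes the letters and does not show that a factor binds.

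The levels of the subunit genes differed widely before any knockout. The mean level in NC is given in deposited FPKM (fragments per kilobase per 1000000 counted). Among the 31 members that encode standard 26S subunits, it ran from 1.4 for the ATPase gene PSMC6 to 676 for the core gene PSMB3. The median was 35.2. The 13 genes with a GC content under 45% had a median of 7.77 FPKM in NC, and the other 18 had a median of 295. The 13 genes were also longer, with a median of 3210 bases, against 1641 bases in the 18. FPKM divides by length, and the part of length in these levels was not tested. Across the 31 genes the rank correlation of level with GC content was 0.80 in OGT_KO, 0.83 in TR11B_KO and 0.82 in NC, against 0.47, 0.51 and 0.49 over 11729 tested genes. The points share libraries, and the correlations are descriptions. PSMA4 (2.28 FPKM in NC, 42.1% GC) and PSMC1 (4.75 FPKM, 48.7% GC) lay low for their GC content, and PSMB1 (97.0 FPKM, 40.7% GC) lay high. Their lengths were 4467, 5951 and 891 bases.

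**Figure D1:**
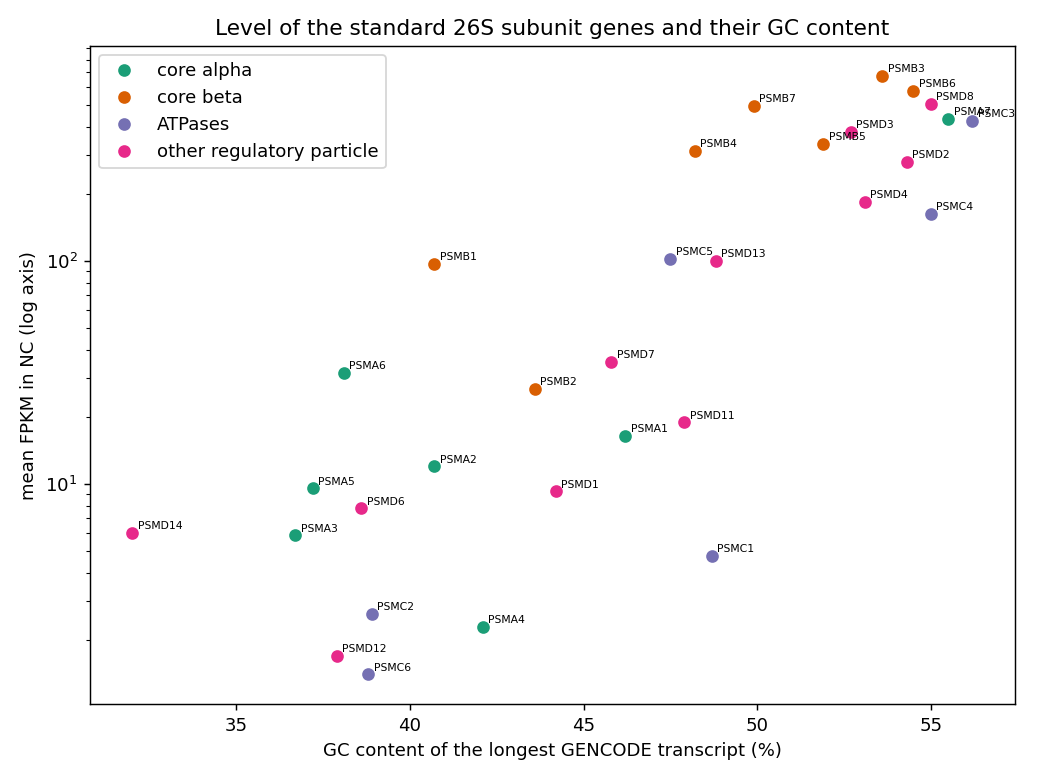
Mean deposited FPKM in the 3 NC libraries (log axis) against GC content of the longest GENCODE transcript (percent) for the 31 standard subunit genes among the members. Each point is 1 gene, coloured by class. The 13 genes under 45% GC lie between 1.4 FPKM (PSMC6) and 97.0 FPKM (PSMB1).

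OGT_KO was first set against NC, to see how proteasome genes change with OGT knockout. No proteasome gene rose and 6 fell: the regulatory particle genes PSMD8, PSMD3 and PSMC4, the regulatory particle chaperone gene PSMD9, the core assembly chaperone gene PSMG4 and the nuclear activator gene PSME3. None of the 14 standard core genes and none of the 3 immunoproteasome genes passed the test in this fit, in which all 3 groups share 1 estimate of the spread. The result for the core depends on that spread. Without TR11B_KO replicate 2, a library in neither group, PSMA6 (−0.59, adjusted p = 0.00156), PSMB1 (−0.49, adjusted p = 0.00583) and PSMB5 (−0.38, adjusted p = 0.0131) passed as lower. PSMA2 passed as higher (0.59, adjusted p = 0.0379), and the immunoproteasome genes did not pass. In bulk RNA, fewer cells of a kind and less RNA per cell cannot be told apart. The 6 calls among 47 members (12.8%) stand beside 18.3% called among all tested genes, and 10.1% called lower. The median log2 fold change was −0.18 over the members and 0.03 over all tested genes. Calls are from edgeR's quasi-likelihood test over all 9 libraries, at an adjusted p under 0.05 over all tested genes.

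PSMD8, a lid subunit of the regulatory particle (chromosome 19, 38374571 to 38383824), changed most. It had 355, 313 and 375 CPM in OGT_KO, against 738, 741 and 805 CPM in NC. Every OGT_KO library was thus under every NC library, and the 3 TR11B_KO libraries, at 728, 758 and 708 CPM, lay at the level of NC. The log2 fold change was −1.13 ± 0.15 (SE; adjusted p = 0.000303), and the call held in all 21 alternative analyses with adjusted p up to 0.00419. PSMD9, which chaperones the assembly of the ATPase ring, had 33.4, 35.1 and 35.4 CPM in OGT_KO, against 58.6, 58.5 and 66.8 CPM in NC. The groups did not overlap, and the fall was also called in all 21 alternatives (−0.82 ± 0.16, adjusted p = 0.00285). PSMG4, partner of PSMG3 in an early chaperone of the alpha ring, had 9.19, 8.26 and 6.62 CPM in OGT_KO, against 17.4, 18.2 and 16.4 CPM in NC. It was low in all 3 OGT_KO libraries (−1.11 ± 0.21, adjusted p = 0.00317), with adjusted p up to 0.047 over its alternatives.

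PSMC4, an ATPase, had 193, 175 and 180.3 CPM in OGT_KO, against 278, 290.5 and 283 CPM in NC, with no overlap (−0.63 ± 0.15, adjusted p = 0.0112). PSMD3, a lid subunit, lay between 503 and 591 CPM in OGT_KO, against 807, 801 and 811 CPM in NC (−0.56 ± 0.16, adjusted p = 0.0255). Its NC libraries were almost level, and every OGT_KO library was under them. PSME3, which encodes the nuclear activator PA28 gamma, had 230, 247 and 210.2 CPM in OGT_KO, against 387, 415 and 319 CPM in NC (−0.71 ± 0.19, adjusted p = 0.0183). The PSMC4 call was lost in 4 of 21 alternatives, those without OGT_KO replicate 2 or 3 or NC replicate 1 or 2, with adjusted p up to 0.0556. The PSMD3 call was lost in 8, among them each fit without 1 of the OGT_KO or NC libraries, with adjusted p up to 0.104. The PSME3 call was lost in 9, among them library totals and each such fit except that without NC replicate 3, with adjusted p up to 0.163.

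**Figure D2:**
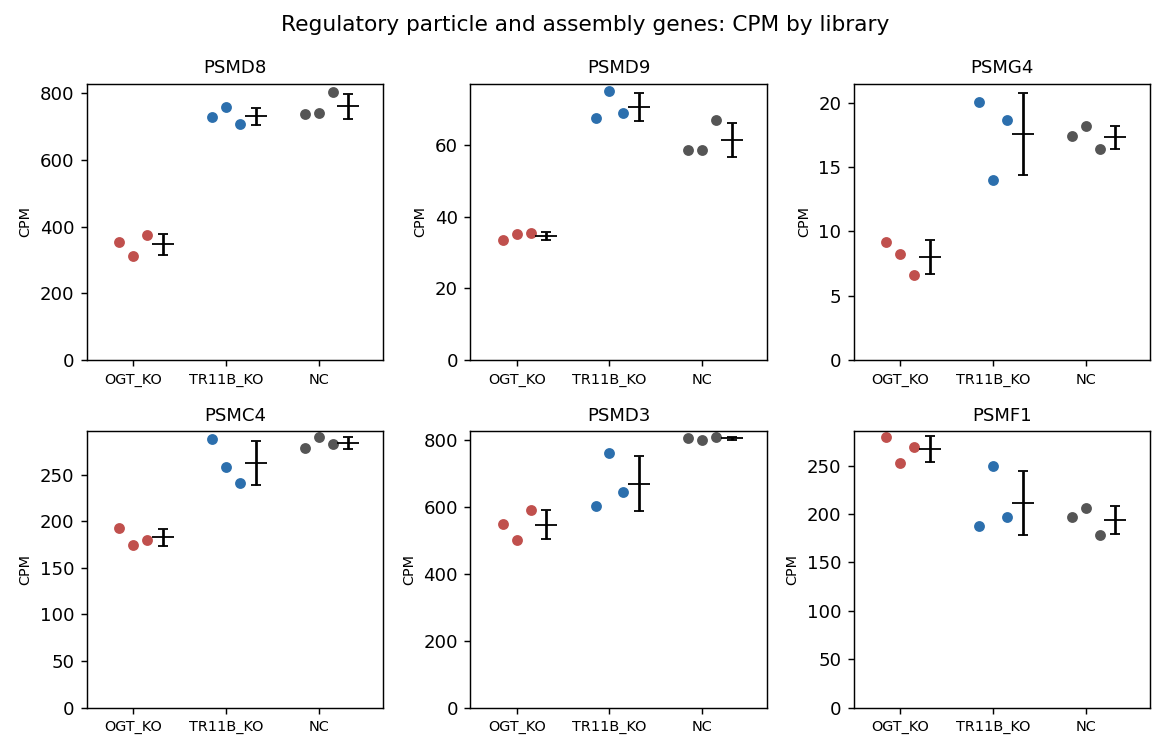
CPM of 6 genes in each library, by group (OGT_KO, TR11B_KO and NC from left to right); points are libraries, and the bar beside them gives the mean and SD of 3. PSMD8 lies between 313 and 375 CPM in OGT_KO and at 708 CPM or more elsewhere, and PSMF1 lies highest in OGT_KO.

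Several members lay apart from NC without passing the test, and only some are given here. Groups also did not overlap for members far from passing, such as PSMA1 (−0.26, adjusted p = 0.466) and PSMC1 (−0.29, adjusted p = 0.577). How many of all tested genes lack overlap was not counted in any comparison. A lack of overlap alone therefore does not set a gene apart in this report. PSMF1, the inhibitor PI31, had 279, 253 and 269 CPM in OGT_KO, against 197, 206 and 178 CPM in NC, so that all OGT_KO libraries were higher (0.46 ± 0.16, adjusted p = 0.0645). With library totals in place of TMM factors, PSMF1 passed as higher (0.58, adjusted p = 0.0044), so the counts became 1 higher and 5 lower. PSMG1, which pairs with PSMG2 in alpha ring assembly, had 7.19, 7.57 and 4.95 CPM in OGT_KO, against 11.8, 14.1 and 13.8 CPM in NC (−1.01 ± 0.41, adjusted p = 0.101). PSMB5, the chymotrypsin-like cutting subunit, had 343, 294 and 311 CPM in OGT_KO, against 412, 405 and 424 CPM in NC (−0.39 ± 0.15, adjusted p = 0.0957). For both genes the groups did not overlap, but neither passed after adjustment over all tested genes. PSMG1 was called in 5 and PSMB5 in 2 of 21 alternatives. Both passed without TR11B_KO replicate 2 (adjusted p = 0.000205 and 0.0131), a library in neither group that adds to the shared spread.

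By class, the 7 alpha genes had a median of −0.03, with the range from −0.59 (PSMA6) to 0.58 (PSMA2). PSMA2 had 24.0, 25.3 and 27.4 CPM in OGT_KO, against 15.1, 15.0 and 21.1 CPM in NC (adjusted p = 0.197). The 7 standard beta genes were all below 0, from −0.49 (PSMB1) to −0.07 (PSMB4), and the 6 ATPases ran from −0.63 (PSMC4) to 0.48 (PSMC6). PSMC6 had 5.75, 7.63 and 7.95 CPM in OGT_KO, against 4.4, 4.99 and 5.93 CPM in NC (adjusted p = 0.158). The 4 core assembly chaperone genes had a median of −0.69. The 11 other regulatory particle genes had a median of −0.54, with 2 called lower and the highest value at 0.12 for PSMD12. In summed FPKM these 11 genes held 1139, 1128 and 1114 in OGT_KO, against 1511, 1529.9 and 1539 in NC, where the 14 standard core genes held 3041, 2925 and 2816 in OGT_KO, against 2898, 2992 and 3208 in NC. The summed core level was divided by that of the 17 regulatory particle genes with a PSMC or PSMD symbol. ADRM1 and SEM1, subunit genes of that particle outside the member rule, are not in this sum. ADRM1 alone averaged 486 FPKM in OGT_KO, 393 FPKM in TR11B_KO and 500.3 FPKM in NC. The ratio was 1.7, 1.65 and 1.66 in OGT_KO, 1.69, 1.45 and 1.67 in TR11B_KO, and 1.32, 1.33 and 1.44 in NC. All knockout libraries were above all NC libraries in this ratio, which few highly expressed genes dominate. Processed pseudogenes of several members can share their reads, and genes named as antisense exist for PSMA3, PSMB8, PSMD6 and PSMG3. The labels do not say whether counting used strand, and these antisense genes held 63 counts or fewer in every library. PSMC3IP, named for binding PSMC3 and known as a meiotic recombination factor rather than a subunit, was at 0.06 ± 0.26.

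**Figure D3:**
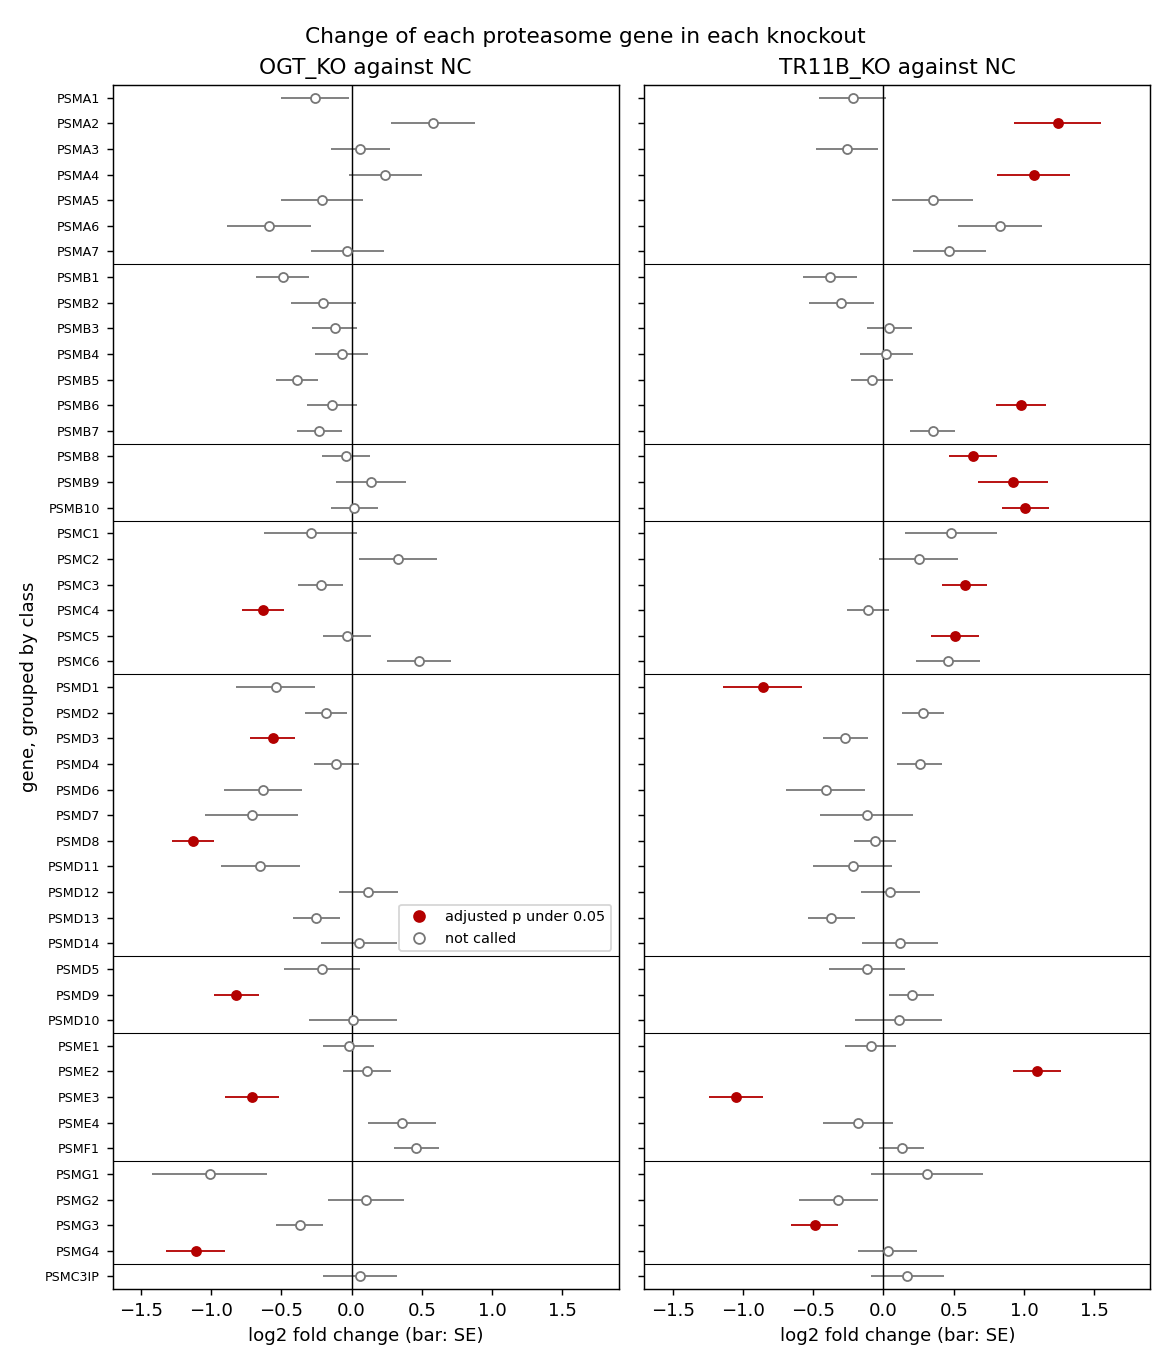
Log2 fold change of each of the 47 genes in OGT_KO against NC (left) and TR11B_KO against NC (right), with the SE as bar; filled red points passed an adjusted p under 0.05, and lines divide the classes. In OGT_KO the 6 filled points are all below 0, and in TR11B_KO 9 are above and 3 below.

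TR11B_KO was then set against NC in the same fit. All 3 immunoproteasome genes rose, by 0.64 to 1.01 on the log2 scale, together with PSME2, the beta subunit of the interferon-inducible activator PA28, and PSMB6. PSMA2, PSMA4, PSMC3 and PSMC5 rose too, while PSME3, PSMD1 and PSMG3 fell. The 12 calls among 47 members (25.5%) were near the 27.6% called among all tested genes, of which 13.2% were called higher and 14.3% lower, so the count itself does not set the members apart. Their median was 0.11 and that of all tested genes −0.01. With library totals alone the members' median was −0.04, where that of all tested genes was −0.15, and 8 rose and 4 fell.

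PSMB10, which takes the place of PSMB7 (chromosome 16, 67934506 to 67936850), had 219, 309 and 253 CPM in TR11B_KO, against 126, 125 and 137 CPM in NC. All TR11B_KO libraries were above all NC libraries, and OGT_KO, at 142, 116 and 136 CPM, was at the level of NC. The rise was 1.01 ± 0.17 (adjusted p = 0.0012) and passed in all 21 alternatives, with adjusted p up to 0.0498. PSMB9, which takes the place of PSMB6 (chromosome 6, 32854192 to 32859851), had 48.0, 89.9 and 47.1 CPM in TR11B_KO, against 33.4, 28.3 and 36.3 CPM in NC (0.92 ± 0.25, adjusted p = 0.0147). Replicate 2 was far above the other TR11B_KO libraries, and without it the rise was 0.57 (adjusted p = 0.00683). PSMB8, which takes the place of PSMB5 (chromosome 6, 32840717 to 32844679), had 80.5, 102 and 82.4 CPM in TR11B_KO, against 54.9, 57.1 and 57.3 CPM in NC. It did not overlap with NC (0.64 ± 0.17, adjusted p = 0.0126). Without NC replicate 1 or 2 the calls of PSMB8 (adjusted p = 0.0649 and 0.0556) and PSMB9 (adjusted p = 0.053 and 0.0753) were lost, at log2 fold changes of 0.62 to 0.93.

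PSME2 (chromosome 14, 24143365 to 24146610) had 230.5, 162 and 187 CPM in TR11B_KO, against 88.2, 99.7 and 85.0 CPM in NC. All 3 TR11B_KO libraries were higher, and the rise of 1.09 ± 0.17 (adjusted p = 0.000689) passed in all 21 alternatives, with adjusted p up to 0.0276. PSME1, the alpha subunit that joins PSME2 in the same ring, lies beside it on chromosome 14 and had 69.0, 46.3 and 49.8 CPM in TR11B_KO, against 54.7, 59.3 and 62.0 CPM in NC. The groups overlapped (−0.09 ± 0.18, adjusted p = 0.732). PSME3 had 206, 139 and 197 CPM in TR11B_KO, against 387, 415 and 319 CPM in NC, a fall of 1.05 ± 0.19 (adjusted p = 0.00149) that passed in all 21 alternatives. It was the only member called against NC in both knockouts, which share the NC libraries.

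Of the standard cutting subunits, PSMB6 had 806, 1153 and 898 CPM in TR11B_KO, against 451, 459 and 543 CPM in NC (0.98 ± 0.18, adjusted p = 0.00196). PSMB7 had 639, 624 and 585 CPM in TR11B_KO, against 427, 486 and 542 CPM in NC, which did not overlap but did not pass (0.35 ± 0.16, adjusted p = 0.118). PSMB5 had 402, 420 and 352 CPM in TR11B_KO, against 412, 405 and 424 CPM in NC, with overlap (−0.08 ± 0.15, adjusted p = 0.732). The 3 standard cutting subunits thus had unequal values, and only PSMB6 passed.

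**Figure D4:**
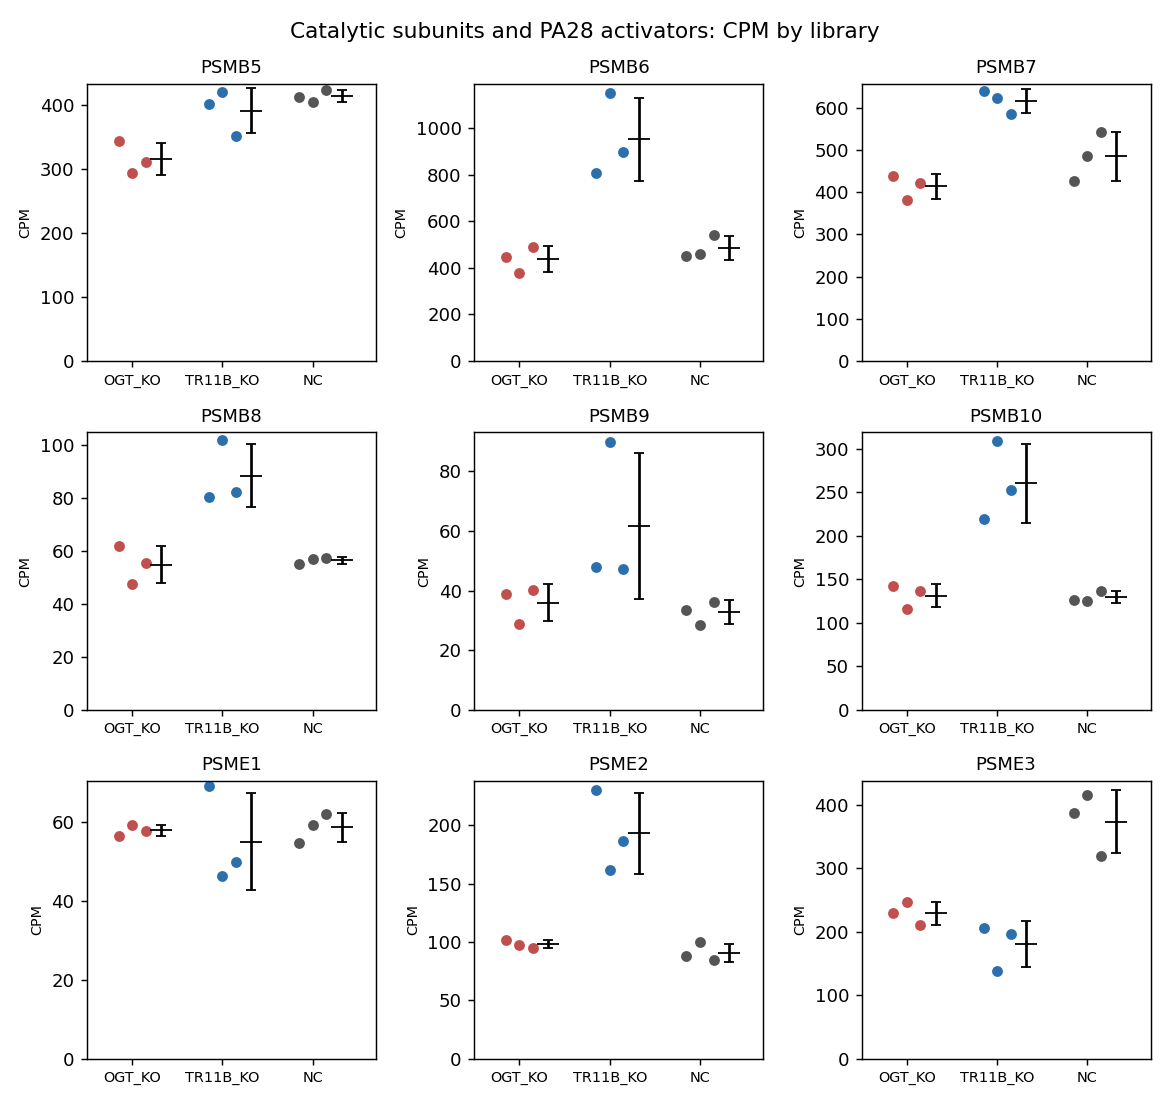
CPM in each library of the standard cutting subunits (top), their immunoproteasome counterparts (middle) and the PA28 genes (bottom), by group (OGT_KO, TR11B_KO and NC from left to right); points are libraries, and the bar gives the mean and SD of 3. PSMB8, PSMB9, PSMB10 and PSME2 are highest in TR11B_KO, and PSME3 is highest in NC.

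The level of each immunoproteasome gene was set against that of its counterpart within a library, per length. The log2 ratio of PSMB8 to PSMB5 was −2.61, −2.34 and −2.39 in TR11B_KO, against −3.20, −3.12 and −3.18 in NC, a difference of 0.72. That of PSMB10 to PSMB7 was −1.54, −1.0 and −1.20 in TR11B_KO, against −1.74, −1.94 and −1.97 in NC, a difference of 0.64. Neither overlapped. That of PSMB9 to PSMB6 was −4.34, −3.95 and −4.52 in TR11B_KO, against −4.03, −4.29 and −4.17 in NC, with a difference of −0.11. In OGT_KO against NC the differences were 0.34, 0.24 and 0.28 for the PSMB8, PSMB10 and PSMB9 ratios, without overlap. The exact two-sided permutation test gave p = 0.1, the smallest value that 3 against 3 allows, for all of these except the PSMB9 ratio in TR11B_KO (p = 0.6), and no value under 0.1286 after adjustment over 9 comparisons.

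Among the alpha genes, PSMA2 had 66.6, 25.3 and 29.5 CPM in TR11B_KO, against 15.1, 15.0 and 21.1 CPM in NC (1.24 ± 0.31, adjusted p = 0.00891). Without TR11B_KO replicate 1, its highest library, the rise was 0.74 (adjusted p = 0.00895). The call was lost in the 3 limma fits on FPKM (adjusted p = 0.0823, 0.0748 and 0.155). PSMA4 had 29.4, 19.9 and 14.1 CPM in TR11B_KO, against 8.39, 9.46 and 12.4 CPM in NC (1.07 ± 0.26, adjusted p = 0.0089), a call lost without NC replicate 1 (0.95, adjusted p = 0.0551) and in the same limma fits (adjusted p up to 0.111). PSMA6 had 229, 74.8 and 171 CPM in TR11B_KO, against 92.3, 101 and 74.7 CPM in NC, and did not pass (0.83 ± 0.30, adjusted p = 0.0544). It passed without replicate 2 (1.19, adjusted p = 4.57e-07) and gave 0.52 without replicate 1 (adjusted p = 0.133). PSMA7 also rose without replicate 2 (0.81, adjusted p = 1.72e-05), but with it the value was 0.47 (adjusted p = 0.196).

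In the regulatory particle, the ATPase gene PSMC3 had 1105, 1223 and 974 CPM in TR11B_KO, against 694, 761 and 747 CPM in NC (0.58 ± 0.16, adjusted p = 0.0139), a call lost without NC replicate 1 or 2 (adjusted p = 0.0796 and 0.0552). PSMC5, another ATPase, had 252, 225 and 236 CPM in TR11B_KO, against 171, 186 and 143 CPM in NC (0.51 ± 0.17, adjusted p = 0.0346), a call lost in 14 of its 21 alternatives (adjusted p at most 0.297), including each fit without 1 library except those without TR11B_KO replicate 1 or 2. Both were above NC in every library. PSMD1, the large scaffold of the base, had 33.2, 11.8 and 20.4 CPM in TR11B_KO, against 39.4, 43.2 and 36.4 CPM in NC (−0.86 ± 0.28, adjusted p = 0.0361). That call was lost in 11 alternatives, among them each fit without 1 library except those without TR11B_KO replicate 1 or 2. Without TR11B_KO replicate 2 the PSMD1 value was −0.54, still called (adjusted p = 0.0174). PSMG3, the chaperone partner of PSMG4, had 38.2, 36.1 and 35.3 CPM in TR11B_KO, against 48.1, 49.0 and 57.1 CPM in NC (−0.49 ± 0.17, adjusted p = 0.0416), lost in 13 alternatives, among them DESeq2 (adjusted p = 0.0543) and each fit without 1 library except those without TR11B_KO replicate 1 or 2. PSMG4 itself had 20.1, 14.0 and 18.7 CPM in TR11B_KO, against 17.4, 18.2 and 16.4 CPM in NC, with overlap.

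Fold changes in TR11B_KO moved with gene length over all genes (rank correlation −0.31, n = 11729 genes with a GC value), and the members' median length was 1678 bases, where all tested genes had 3965. Among the 47 members the correlation with length was −0.14. With the length trend of each library removed, 4 members were called higher and 7 lower, and the members' median was −0.10. This is 23.4% of members, beside 22.2% called and a median of 0.05 over all tested genes in that fit. The rises of PSME2 (0.58, adjusted p = 0.0276), PSMB10 (0.52, adjusted p = 0.0498), PSMA4 (1.24, adjusted p = 0.00376) and PSMA2 (0.91, adjusted p = 0.0352) passed. Removing the length trend ended the calls of PSMB6 (0.44, adjusted p = 0.105), PSMB8 (0.36, adjusted p = 0.146), PSMB9 (0.45, adjusted p = 0.201), PSMC3 (0.37, adjusted p = 0.121), PSMC5 (0.27, adjusted p = 0.297) and PSMD1 (−0.70, adjusted p = 0.0681). With trends on length and GC content removed together, 12 were higher and 8 lower (42.6% of members, beside 29.5% of all tested genes), and every rise named here passed except that of PSMB9 (0.74, adjusted p = 0.0962).

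The TR11B_KO libraries also differed among themselves. The median of the members' log2 deviation from the NC mean was 0.37, −0.24 and 0.04 in replicates 1, 2 and 3, where OGT_KO had −0.12, −0.16 and −0.20, and NC −0.03, 0.01 and 0.02. Replicate 1 had 37 of 47 members above the NC mean, and replicate 2 had 16. The rank correlation of this deviation with GC content over the 47 members was −0.19, 0.32 and 0.14 in TR11B_KO, −0.12, −0.43 and −0.14 in OGT_KO, and −0.11, 0.03 and −0.01 in NC. Without TR11B_KO replicate 2, 16 members were called higher and 3 lower against NC (40.4%, beside 34.2% of all tested genes). Without replicate 1, 9 were higher and 5 lower (29.8%, beside 34.8%). Neither GC content nor the preparation of these libraries was tested as a part of these differences.

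**Figure D5:**
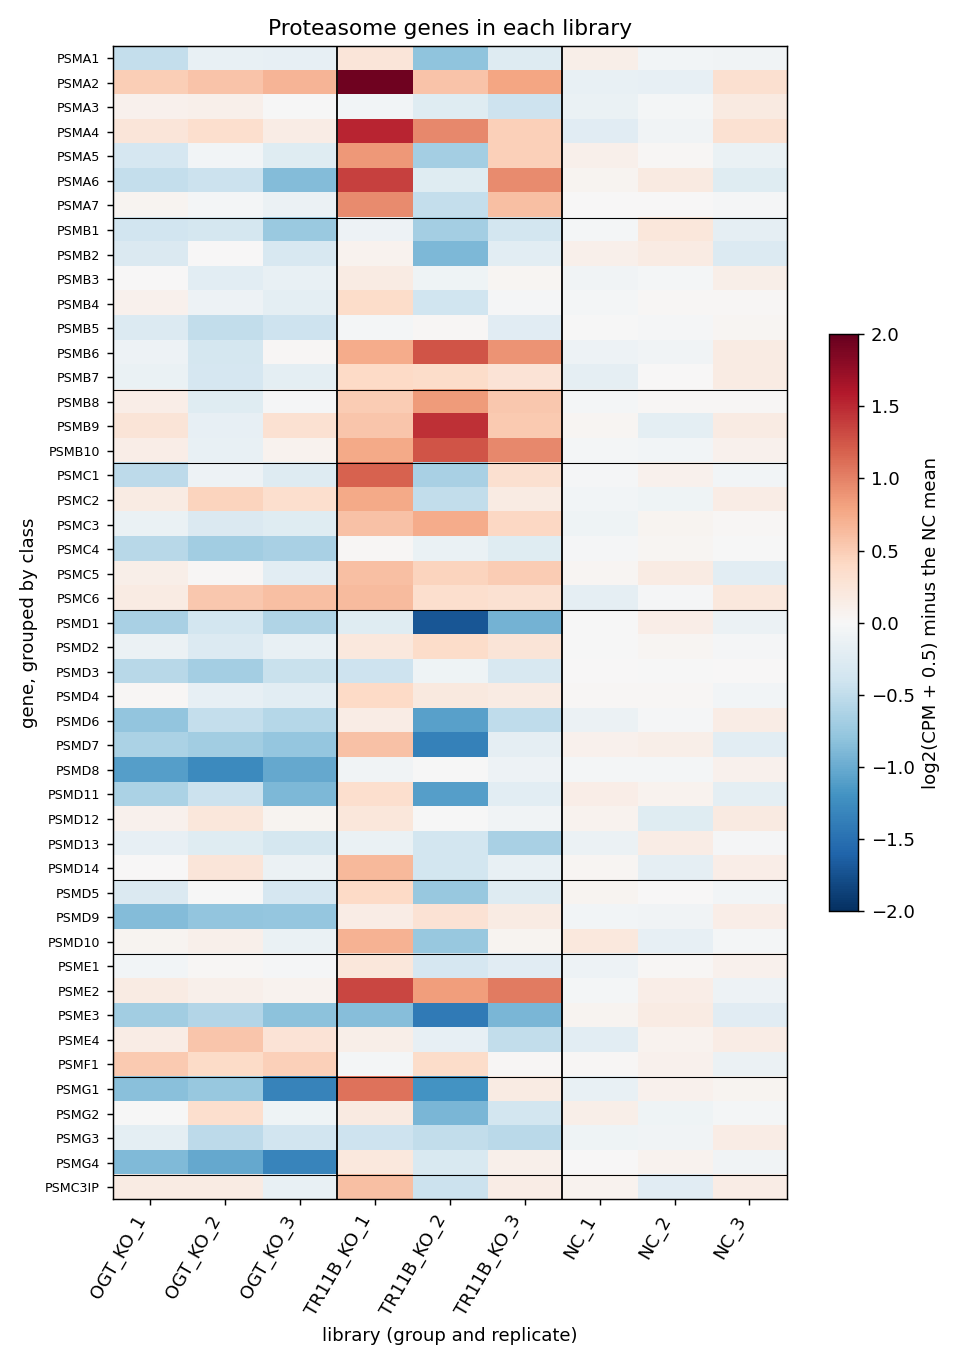
Log2(CPM + 0.5) minus the NC mean for each of the 47 genes (rows, by class) in the 9 libraries (columns, OGT_KO, TR11B_KO and NC from left to right); red is above and blue below the NC mean. The PSMB8, PSMB9, PSMB10 and PSME2 rows are red in all 3 TR11B_KO libraries, while many PSMA and PSMD rows differ in colour between TR11B_KO replicates 1 and 2.

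The knockouts were set against each other to ask where they differ. In OGT_KO, 16 members were lower than in TR11B_KO and 0 were higher, among 47 (34.0%). Of all tested genes, 33.2% were called, 16.5% lower and 16.7% higher, so the share called does not set the members apart. The members' median was −0.31 and that of all tested genes 0.06. With library totals alone, 9 were lower and 2 higher (23.4%, beside 34.6% of all tested genes). The medians in that fit were −0.04 over members and 0.31 over all tested genes. With the length trend removed, 11 were lower and 2 higher (27.7%, beside 28.0% of all tested genes). All 3 immunoproteasome genes were lower in OGT_KO, led by PSMB10 (−0.99 ± 0.17, adjusted p = 0.000828), and so were PSME2 (−0.98 ± 0.17, adjusted p = 0.000799) and PSMB6 (−1.12 ± 0.18, adjusted p = 0.000513). PSMD8 (−1.07 ± 0.15, adjusted p = 0.000198), PSMD9 (−1.03 ± 0.16, adjusted p = 0.000312) and PSMG4 (−1.13 ± 0.21, adjusted p = 0.00142) differed as much, with no overlap between the knockouts. PSMB6, PSMB10, PSMC3, PSMD8, PSMD9, PSME2 and PSMG4 passed in all 21 alternatives.

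PSMA6 was lower in OGT_KO by the widest margin, with 63.7, 65.9 and 48.4 CPM there, against 229, 74.8 and 171 CPM in TR11B_KO (−1.42 ± 0.30, adjusted p = 0.00321). The other calls, of which only that of PSMC3 held in all 21 alternatives, were PSMA4 (−0.83), PSMB7 (−0.57), PSMB8 (−0.68), PSMB9 (−0.78), PSMC3 (−0.80), PSMC4 (−0.52), PSMC5 (−0.54), PSMD2 (−0.46) and PSMG1 (−1.32). PSMG1 had 7.19, 7.57 and 4.95 CPM in OGT_KO, against 28.7, 5.48 and 14.9 CPM in TR11B_KO, which overlapped, and leaving out TR11B_KO replicate 1 ended its call (−0.68, adjusted p = 0.103). PSME3, low in both knockouts, was not called between them.

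Genes that work beside the proteasome were read from the same fit. Of 18 accessory and shuttle genes, 0 rose and 4 fell in TR11B_KO, which is 22.2%, beside 27.6% of all tested genes. POMP, the maturation chaperone of the core, had 19.6, 11.2 and 13.8 CPM in TR11B_KO, against 29.1, 26.3 and 30.2 CPM in NC (−0.94, adjusted p = 0.00687). UBE3C, a ubiquitin ligase of the proteasome, was at −1.79 (adjusted p = 0.00105) and the ubiquilin gene UBQLN2 at −1.29 (adjusted p = 0.0257). In OGT_KO, 1 of the 18 fell, ZFAND2A (−1.0, adjusted p = 0.0121, and 0.0532 with library totals), and 0 rose. That is 5.56%, beside 18.3% of all tested genes.

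Of 13 genes that regulate proteasome transcription through NFE2L1 or NFE2L2, 1 rose and 2 fell in each knockout. This share of 23.1% stands beside 18.3% of all tested genes in OGT_KO and 27.6% in TR11B_KO. NFE2L1 had 113, 121 and 90.7 CPM in OGT_KO and 102, 85.3 and 126 CPM in TR11B_KO, against 173, 179 and 142 CPM in NC. It was below NC in all 6 knockout libraries, at −0.61 in OGT_KO (adjusted p = 0.0387) and −0.66 in TR11B_KO (adjusted p = 0.0193). The OGT_KO call held in 10 of 21 alternatives (adjusted p = 0.134 with library totals, at most 0.225), and the TR11B_KO call in 14 (adjusted p = 0.102 with the length trend removed, at most 0.103). NFE2L2 (NRF2) rose in OGT_KO by 1.29 (adjusted p = 0.00322), with 5.55, 8.06 and 6.52 CPM there, against 2.41, 2.61 and 3.22 CPM in NC, and KEAP1, which marks NRF2 for degradation, fell by 0.71 (adjusted p = 0.00619). HCFC1, a cofactor that OGT cleaves, fell in TR11B_KO (−1.14, adjusted p = 0.00198), and MAFF, a partner of both factors, rose (0.50, adjusted p = 0.0464), a call that held in 5 of 21 alternatives (adjusted p at most 0.323). Of 10 tested NRF2 target genes outside the proteasome, 1 rose (TXNRD1, 0.87, called in 9 of 21 alternatives) and 1 fell (NQO1, −0.88) in OGT_KO, and 0 rose and 2 fell (NQO1, −1.02, and GCLM, −0.91, called in 13 of 21) in TR11B_KO. These are 20.0% in each, beside the same 18.3% and 27.6%.

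Of 16 tested genes of antigen processing and its regulators, 5 rose and 5 fell in TR11B_KO, and 0 rose and 3 fell in OGT_KO. These are 62.5% in TR11B_KO, beside 27.6% of all tested genes, and 18.8% in OGT_KO, beside 18.3%. HLA-F (1.10), HLA-B (0.74), HLA-C (0.68) and HLA-E (0.67) rose, HLA-B and HLA-C not with the length trend removed (adjusted p = 0.161 and 0.101). TAP1, the peptide transporter gene that neighbours PSMB9, had 114, 176 and 140.3 CPM in TR11B_KO, against 219, 223 and 241 CPM in NC, and fell by 0.66 (adjusted p = 0.0145). IRF1, a factor of the interferon response, fell in TR11B_KO (−0.60, adjusted p = 0.0181, and 0.0571 with the length trend removed), and so did ERAP1, which trims peptides (−0.82), and the chaperone CANX (−0.84). With the length trend removed, these calls were lost too (adjusted p = 0.0792 and 0.0753). In OGT_KO, the genes that fell were TAP2 (−0.65, adjusted p = 0.0108), HLA-E (−0.89, adjusted p = 0.00586) and the chaperone CALR (−0.66, adjusted p = 0.0277, and 0.103 with library totals). HLA genes share sequence with each other, and their values are uncertain for that reason.

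The ubiquitin genes and the segregase VCP moved in both directions. Of 6 ubiquitin and E1 genes, 2 rose and 2 fell in TR11B_KO, while 0 passed in OGT_KO by edgeR, which is 66.7% and 0%, beside 27.6% and 18.3% of all tested genes. In OGT_KO, 2 of these 6 had an unadjusted p under 0.05. In TR11B_KO, UBB rose (0.62, adjusted p = 0.011) and UBA1, the main E1 enzyme, fell (−0.61, adjusted p = 0.0268), and neither passed with the length trend removed (adjusted p = 0.132 and 0.353). Without TR11B_KO replicate 1, UBA1 was at −0.38 (adjusted p = 0.091). VCP, which extracts ubiquitinated proteins for the proteasome, had 505, 509 and 471 CPM in OGT_KO and 530.0, 401 and 534 CPM in TR11B_KO, against 831, 871 and 713 CPM in NC (−0.70, adjusted p = 0.0112, and −0.72, adjusted p = 0.00682). Its cofactor genes were divided in TR11B_KO, where NPLOC4 was at −1.46 and UFD1 at 1.36, although their proteins work as a pair. Over the 16 genes of VCP and its cofactors, 1 rose and 2 fell in OGT_KO, and 3 rose and 4 fell in TR11B_KO. These are 18.8%, beside 18.3% of all tested genes, in OGT_KO and 43.8%, beside 27.6%, in TR11B_KO.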

How the data were processed

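RNA-seq of 9 libraries labelled A549 was analysed. Per the submitters' processing notes, the authors worked with GRCh38, and the tools listed are HTSeq, HISAT, fastp, DESeq2 and R 3.2.0, whose roles and settings are not stated there. The deposited counts are whole reads per gene, not normalized; the deposited FPKM values were scaled by the authors to gene length and library total. Gene length came from their ratio, GC content from GENCODE v29, positions from RefSeq (GRCh38.p14).

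Counts were fitted in edgeR 4.0.16 (R 4.3.3): filterByExpr, TMM factors, robust quasi-likelihood F test over all 9 libraries with 1 mean per group, and Benjamini-Hochberg adjustment over 12574 genes; calls needed an adjusted p under 0.05. SE is the absolute log2 fold change over the square root of F. The fit was tested on simulated data. DESeq2 1.42.0 and limma 3.58.1, on log2(FPKM + 1) or log2(FPKM + 0.1), were among 21 alternatives; offsets used lowess with a span of 0.3.

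The members, gene lists and tests were chosen with earlier results of these data known. Values by library are given for PSMB5 to PSMB10, for most members called in a comparison (at most 12, by adjusted p) and for some extremes of a class. Other members are given by fold changes or ranges. Replicate pairs differed by 9.5 to 309.9 chi-square per degree of freedom, so none was a copy. Values of some genes on the lists are not reported here.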

Additional observations from a re-analysis of the deposited data

How the results depend on the processing

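Of the 34 calls of a member in a comparison, none changed direction under the 21 alternatives, and between 20 (without OGT_KO replicate 2) and 34 (without TR11B_KO replicate 2) passed under each. In OGT_KO against NC, the members called (6, all lower) became 10 without the low-count filter (10 lower), 18 with only these groups fitted (3 higher, 15 lower; 5095 of all genes, against 2303), and 11 with length and GC trends removed (11 lower). Library totals and the 3 limma fits on FPKM each called 1 higher and gave a median of −0.07, against −0.18. In TR11B_KO against NC, the 9 higher and 3 lower became 4 and 7 with the length trend removed, 20 calls in all (8 lower) with length and GC trends removed, 1 lower with only these groups fitted (2251 of all genes, against 3469), and 5 lower by limma on log2(FPKM + 1) or log2(FPKM + 0.1), which gave a median of −0.11 with the smaller pseudocount, against 0.11. In OGT_KO against TR11B_KO, the 0 higher and 16 lower became 2 and 9 with library totals, 2 higher with the length trend removed, 5 higher with length and GC trends removed, and 3, 3 and 1 higher with 8 lower each by limma (9 calls in all without a filter), with medians of −0.04 for library totals and limma, against −0.31. Library totals moved the median of all tested genes to 0.15, −0.15 and 0.31 in the 3 comparisons. The cause of these changes was not tested.

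Leaving out 1 library gave ranges over 9 fits, in which the remaining 2 libraries of a group are assumed to vary like the other groups. Members called ran from 3 to 17 in OGT_KO against NC (0 to 2 higher, 3 to 15 lower), 5 to 19 in TR11B_KO against NC (4 to 16 higher, 1 to 5 lower) and 8 to 25 in OGT_KO against TR11B_KO (0 to 3 higher, 8 to 24 lower). All genes called ran from 1072 to 4536, 1813 to 4463 and 2401 to 5307, and the members' medians from −0.18 to −0.13, −0.04 to 0.22 and −0.43 to −0.14. The highest count of members came without TR11B_KO replicate 2 in each comparison, OGT_KO against NC included, although that library is in neither of its groups; the lowest came without NC replicate 1 in TR11B_KO against NC (5). The PSMB9 to PSMB6 ratio in TR11B_KO against NC changed sign, between −0.27 and 0.02 (without TR11B_KO replicate 3), against −0.11.

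The replicate numbers do not pair the samples: deviations of same-numbered samples correlated at 0.069 or less. With the replicate block, 5, 10 and 11 members were called in OGT_KO against NC, TR11B_KO against NC and OGT_KO against TR11B_KO, and 1609, 2612 and 3403 of all genes. The SEs of the members' fold changes in OGT_KO against NC ran from 0.15 to 0.41 (PSMG1), and PSMG4 and PSMC6, of few counts, had 0.21 and 0.23.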

Other observations

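PSME3IP1, whose product binds PSME3 and whose symbol the member rule leaves out, had 22.7, 26.6 and 24.2 CPM in OGT_KO and 28.1, 8.61 and 17.3 CPM in TR11B_KO, against 33.5, 34.6 and 26.7 CPM in NC. In OGT_KO all 3 libraries were below all NC libraries, the nearest at 26.6 against 26.7 CPM, and in TR11B_KO replicate 1 lay within the range of NC. Neither difference passed the edgeR test (−0.37 ± 0.31, adjusted p = 0.436 in OGT_KO, and −0.81 ± 0.31, adjusted p = 0.0653 in TR11B_KO).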
